A study of Mus musculus with 2 samples.

Results

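Lyz2, Lyz1, Plac8, Ccr2, Chil3, Aif1, S100a8 and S100a9, genes in use as marks of monocytes and neutrophils, were followed through single cell RNA sequencing of the mouse mammary gland. They were taken by name, with earlier results of these data known, and make up 8 of the 32285 genes in the count matrices. All 8 had at least 1 unique molecular identifier (UMI, the tag that counts 1 captured transcript) in retained cells of both libraries. The cells came from adult wild-type female mice of 8 to 10 weeks per the protocol (the sample labels give 9 to 10 weeks). Control mice (Ctrl) were compared with mice given repeated intraperitoneal injections of clodronate liposomes (CL), vesicles that kill phagocytes which engulf them. Both suspensions were sorted for CD45+ cells and for CD31-TER119- cells. The strain, the number of animals pooled, the treatment of control mice and the proportion in which the sorted fractions were mixed were not given for these libraries in the sources used here (other experiments of the study used C57/B6 mice, one of them with saline as the control of CL), and the last cannot be told apart from a change in immune cell number. Each group was 1 library, so no difference had a replicate check and none was tested. All intervals are exact 95% intervals (Poisson for counts, Clopper-Pearson for shares, conditional binomial for ratios), and they cover counting error only.

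Monocytes are made in the bone marrow, leave it through the chemokine receptor Ccr2, circulate in blood and enter tissues, where they can mature into macrophages or dendritic cells. Neutrophils are short-lived granulocytes that carry S100a8 and S100a9, a calcium-binding pair that forms the heterodimer calprotectin, as one of their most abundant products. Macrophages resident in the mammary duct are known for the complement genes C1qa, C1qb and C1qc, which classical monocytes lack. Lyz2 encodes lysozyme M, an enzyme that cleaves bacterial cell walls and is made by monocytes, macrophages and neutrophils alike.

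The libraries held 118743318 (Ctrl) and 155765480 (CL) UMIs, and 5937 and 8826 cells were retained, with medians of 11351 and 10337 UMIs per cell. Levels are given as CPM, a gene's share of the UMIs summed over the cells named, written on the customary CPM scale. Of the barcodes, 12 were retained in both libraries, and 0 of these were myeloid cells. Cells were clustered without the 8 genes. A B-like sub-cluster (3 and 17 cells) was set aside from the mononuclear phagocyte-like clusters, named by markers without the 8 genes. The myeloid cells that remained were 59 in Ctrl (0.994%, 0.757 to 1.28) and 255 in CL (2.89%, 2.55 to 3.26). Myeloid cells with at least 10 UMIs of C1qa, C1qb and C1qc together, called C1q-high below, were 41 in Ctrl (0.691%, 0.496 to 0.936) and 67 in CL (0.759%, 0.589 to 0.963). Their share of all cells was not lower in CL, whereas among immune cells (275 and 1006) it went from 14.9% (10.9 to 19.7) to 6.66% (5.20 to 8.38). Since the direction depends on the denominator, these cells do not settle whether the gland labelled CL was depleted of macrophages, and the text speaks of libraries labelled Ctrl and CL. The remaining, C1q-low, myeloid cells were 18 (0.303%, 0.180 to 0.479) and 188 (2.13%, 1.84 to 2.45), a log2 ratio of 2.81 (2.11 to 3.60).

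Over all retained cells, 6 of the 7 members with at least 50 UMIs in the higher library were at least 2-fold higher in the library labelled CL and 0 were lower, where 2.95% of 14641 such genes were that much higher and 2.4% lower. Lyz1 was under that minimum. Lyz2 stood at 12.5 CPM and 138 CPM in the libraries labelled Ctrl and CL, and Chil3, which encodes the chitinase-like protein Ym1, at 0.488 and 7.83 CPM. S100a8 stood at 8.35 and 56.4 CPM and S100a9 at 6.34 and 46.8 CPM. These 4 genes differed most among the 7 above that minimum, with log2 ratios of 3.47 (3.38 to 3.56) for Lyz2, 4.00 (3.56 to 4.49) for Chil3, 2.76 (2.65 to 2.87) for S100a8 and 2.88 (2.76 to 3.01) for S100a9. Ccr2 went from 1.96 to 5.12 CPM (1.38, 1.14 to 1.64) and Aif1, an actin-binding protein of macrophages, from 2.01 to 5.39 CPM (1.42, 1.18 to 1.68). Plac8, a small cysteine-rich protein found in leukocytes and in some epithelia, was the exception below 2-fold, at 116 and 195 CPM (0.75, 0.72 to 0.79). Lyz1, the lysozyme of intestinal Paneth cells, had 1 and 14 UMIs in the libraries labelled Ctrl and CL, a ratio of 3.36 with a counting interval of 0.64 to 8.76. The median log2 ratio of the 8 genes was 2.82, against -0.04 over all genes.

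**Figure D1:**
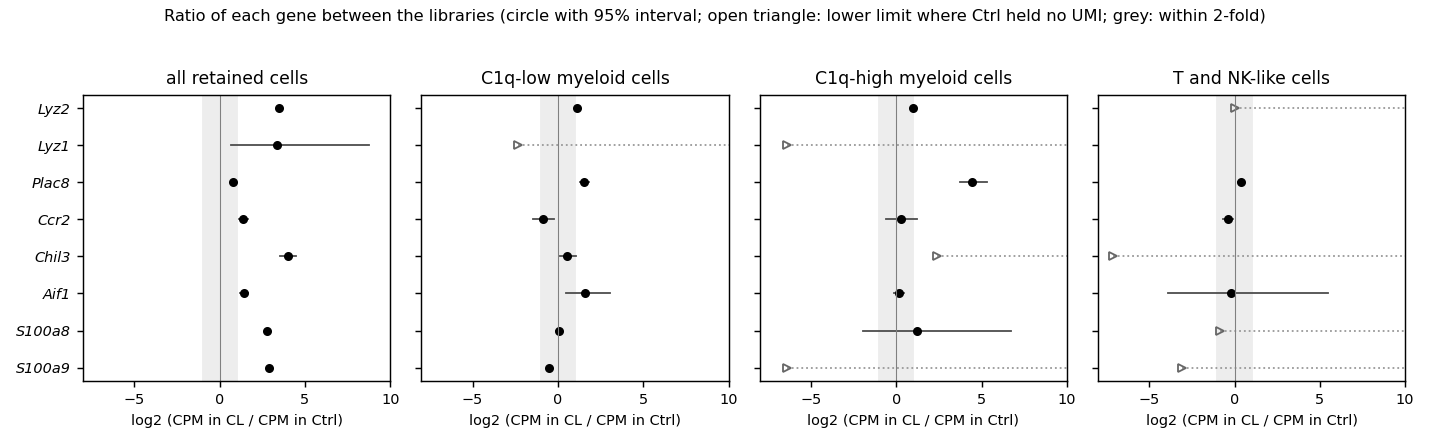
Log2 ratio of CPM (library labelled CL over library labelled Ctrl) for each of the 8 genes in all retained cells, C1q-low myeloid cells, C1q-high myeloid cells and T and NK-like cells. Circles carry 95% counting intervals, open triangles are lower limits where Ctrl held no UMI, and grey marks changes within 2-fold: over all cells Lyz2, Lyz1, Ccr2, Chil3, Aif1, S100a8 and S100a9 lie to the right of it, whereas S100a8 lies at 0.04 within C1q-low cells.

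The difference in UMIs per retained cell lay mostly in myeloid cells for Lyz2 (97.6% of it), S100a9 (97.6%), Chil3 (97.8%) and S100a8 (94.6%). For Plac8 the share was 61.3%, with 17.3% in T and NK-like cells. For Ccr2 it was 49.3%, with 43.5% in T and NK-like cells, whose own share of all cells went from 3.59% to 8.32%.

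Lyz2, Chil3 and S100a9 were found mainly in myeloid cells, whereas Plac8, Ccr2 and, in the library labelled Ctrl, much of S100a8 were not, so the name of monocyte and neutrophil genes fits only some of the 8 in this tissue. Lyz2 was a myeloid transcript, with 96.9% (Ctrl) and 97.6% (CL) of its UMIs in myeloid cells. S100a9 (99.1% and 97.8%) and Chil3 (97.6% and 97.8%) were as concentrated there. Aif1 was myeloid as well (88.4% and 97.3%), but most of its UMIs lay in C1q-high cells (85.0% and 56.5%). Most Ccr2 UMIs of retained cells were in T and NK-like cells, 74.6% (Ctrl) and 56.5% (CL). Most Plac8 UMIs were in luminal epithelial cells, 91.0% and 65.4%. S100a8 had 43.3% (Ctrl) and 11.2% (CL) of its UMIs in retained cells in luminal ones.

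**Figure D2:**
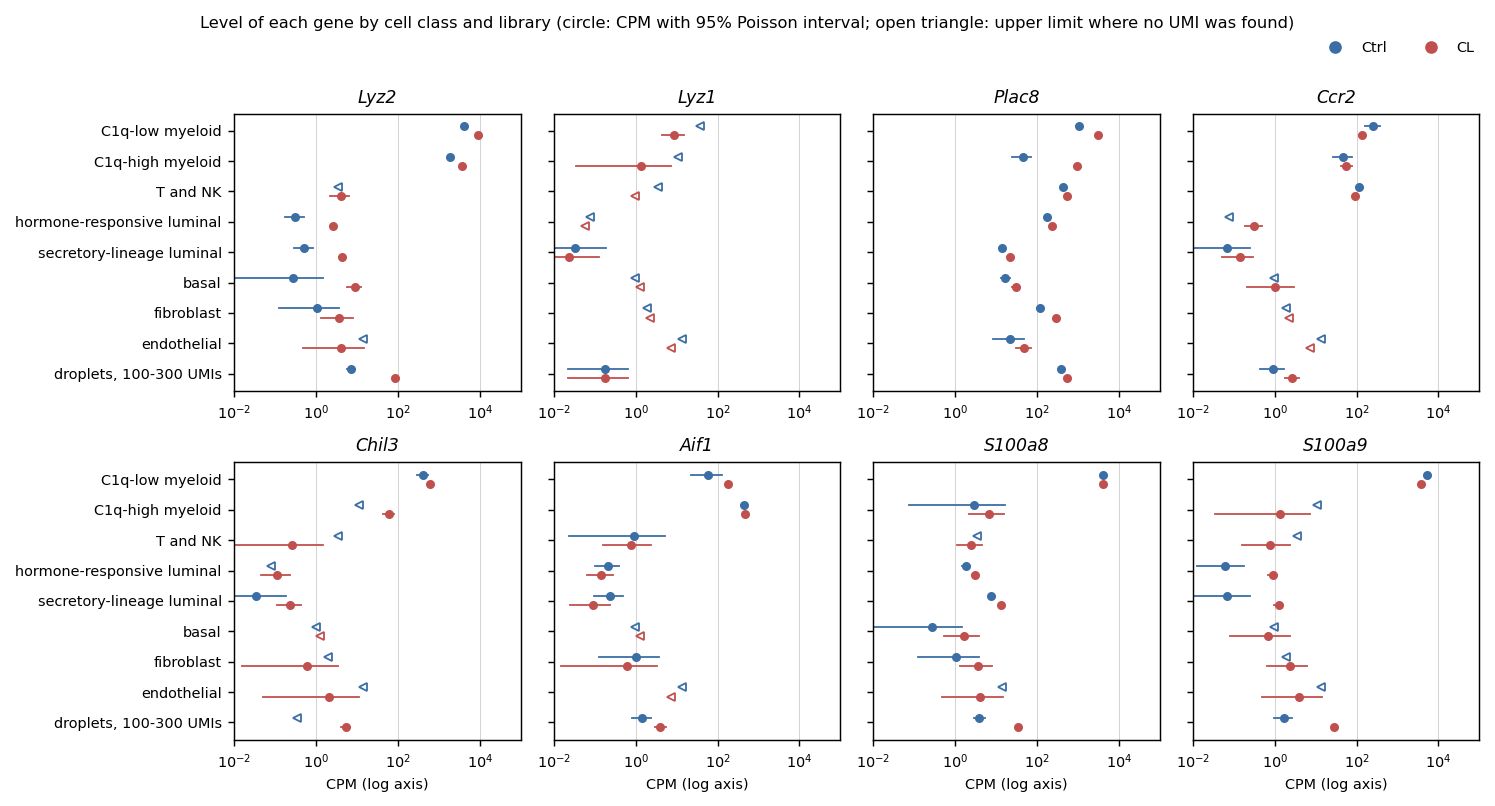
CPM (log axis) of each gene in 8 cell classes and in droplets of 100 to 300 UMIs, for the libraries labelled Ctrl (blue) and CL (red), with 95% Poisson intervals. Open triangles are upper limits where no UMI was found. Of the cell classes, only the myeloid ones reach over 50 CPM of Lyz2, Chil3 or S100a9, whereas Plac8 is above 10 CPM in all 8 classes.

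To describe the C1q-low cells further, the myeloid cells were divided into sub-clusters, again without the 8 genes and after the data had been seen. Sub-clusters 5 and 6, led by Fn1, Vcan, Ccl2 and Ly6c2 (a surface protein of classical monocytes), held 5 cells of the library labelled Ctrl (0.0842%, 0.0274 to 0.196) and 134 of the library labelled CL (1.52%, 1.27 to 1.80). A dendritic-like sub-cluster held 5 and 36 cells. Its leading genes were Cd7, Ifitm1 and Klrd1, of which Klrd1 is a T and NK marker, and the dendritic markers Cd209a and Ccr7 followed, so that the name is uncertain. A neutrophil-like sub-cluster held 2 and 21 cells. Sub-cluster 8, led by Ace, Adgre4 and Treml4, held 5 and 9 and was left unnamed. Sub-cluster 0, led by Mmp12, Mmp13 and C1qa, held 32 and 38 cells, and sub-cluster 3, led by Pf4 and Ccl8, held 8 and 2. A small unnamed one (2 and 15 cells) also carried epithelial genes such as Wfdc18. Since 96.4% of the cells of sub-clusters 5 and 6 came from the library labelled CL, a cell type and a feature of that library cannot be told apart there. Markers of red cells, which the sort should remove, summed to 0 CPM in the myeloid cells of Ctrl and to 961 CPM (C1q-high) and 127 CPM (C1q-low) in those of CL, and markers of basal cells to 791 and 56.1 CPM in C1q-high cells; their part in the results was not tested.

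Lyz2 (ENSMUSG00000069516, chr10:117277331-117282321 on GRCm38, minus strand) was higher in C1q-low than in C1q-high cells in both libraries. In C1q-low cells it stood at 4129 CPM (18 cells, 417 UMIs) and 9134 CPM (188 cells, 13060 UMIs) in the libraries labelled Ctrl and CL. In C1q-high cells it stood at 1823 and 3624 CPM. The log2 ratio of low over high was 1.18 (1.00 to 1.36) for Ctrl and 1.33 (1.27 to 1.39) for CL. A single cell held from 0 to 230 Lyz2 UMIs among C1q-low cells of Ctrl (median 5) and from 0 to 502 in CL (median 28), so that the ranges overlapped.

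Between the libraries, Lyz2 was higher in CL within both groups, with a log2 ratio of 1.15 (1.00 to 1.29) in C1q-low and 0.99 (0.87 to 1.12) in C1q-high cells. The ratio differed between sub-clusters. Sub-clusters 5 and 6 had the highest Lyz2 level of all. Their C1q-low cells stood at 13151 CPM (4 cells) and 13087 CPM (113 cells) in the libraries labelled Ctrl and CL, a log2 ratio of -0.01 (-0.16 to 0.15). In C1q-high cells of the library labelled CL, 21 of 67 cells belonged to these sub-clusters and held 80.4% of the Lyz2 UMIs, at 11130 CPM. One such cell among the 41 C1q-high cells of Ctrl held 29.3% of theirs (182 UMIs). The C1q-high cells of sub-cluster 0 alone went the other way, from 937 CPM (31 cells) to 651 CPM (38 cells), a log2 ratio of -0.52 (-0.78 to -0.27). Without sub-cluster 3, most of whose cells were from Ctrl, the C1q-high ratio was 1.22, and without sub-clusters 5 and 6 it was -0.46. The C1q-low ratio was 2.30 without sub-clusters 5 and 6, where dendritic-like cells went from 166 CPM (5 cells) to 3664 CPM (36 cells). Of the 1646 Lyz2 UMIs of these 36 cells, 3 cells held 411, 332 and 299, and the median cell stood at 364 CPM.

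Thinning each C1q-high cell to 4630 UMIs left 37 cells in Ctrl (4 left out) and 60 in CL (7 left out), and Lyz2 was found in 91.9% and 91.7% of them. Before thinning the shares were 95.1% and 97.0%. These shares are near their ceiling. At least 2 Lyz2 UMIs were held by 86.5% and 80.0% of the thinned cells, and the mean was 9.92 and 19.0 thinned UMIs per cell. In T and NK-like cells, which should lack the gene, 0 of 191 and 6 of 675 cells thinned to 2320 UMIs held a Lyz2 UMI (0.889% in CL).

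**Figure D3:**
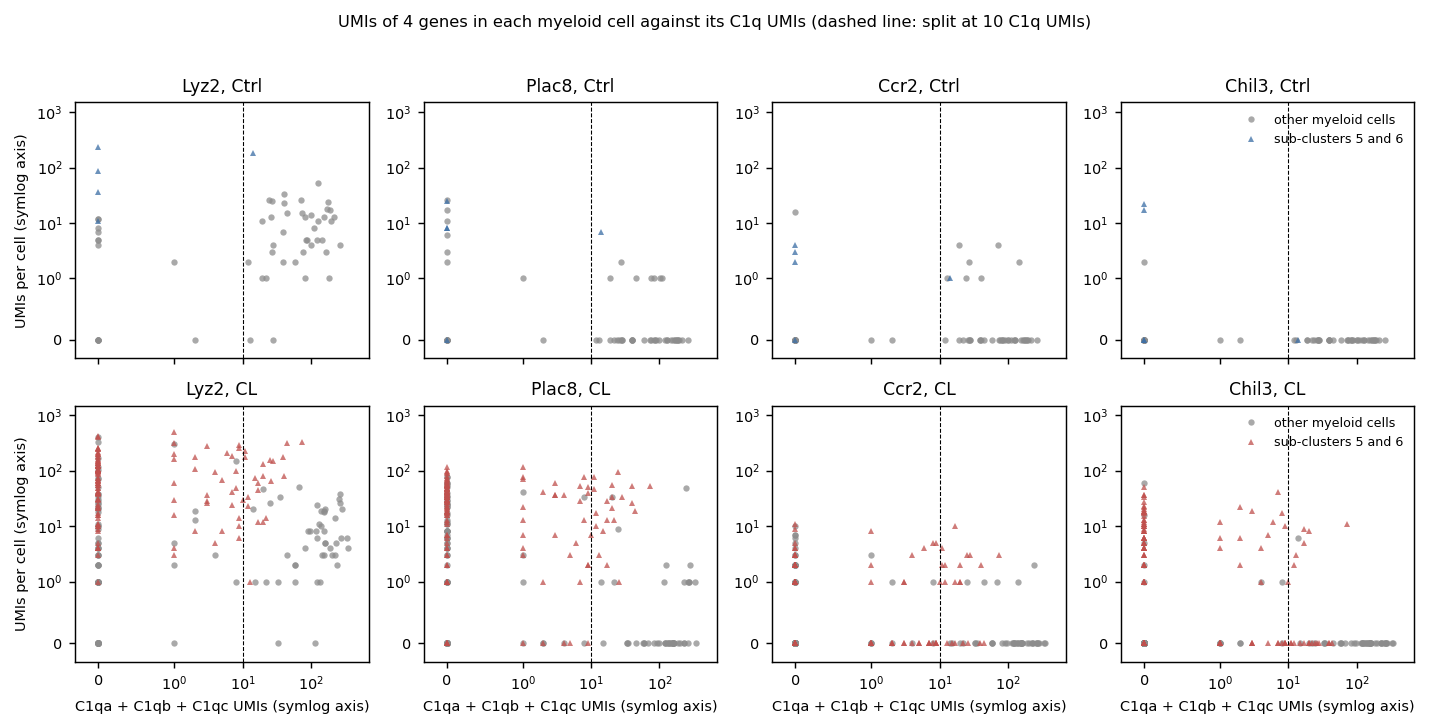
UMIs of Lyz2, Plac8, Ccr2 and Chil3 in each myeloid cell (vertical, symmetric log axis) against its summed C1qa, C1qb and C1qc UMIs (horizontal, symmetric log axis), for the library labelled Ctrl (top, 59 cells) and the library labelled CL (bottom, 255 cells). Triangles are cells of sub-clusters 5 and 6, of which 21 of 134 in CL lie at or right of the split at 10 C1q UMIs (dashed line).

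Lyz1 (ENSMUSG00000069515, chr10:117287797-117292868, minus strand) lies next to Lyz2 and 22 of the 444 bases of its coding sequence differ, so a read can be hard to assign to one copy. The last 120 coding bases, the part of the coding sequence nearest the 3′ end that was sequenced, are shown from the GENCODE M21 transcripts for that reason, with the bases that differ in capitals.
Lyz1: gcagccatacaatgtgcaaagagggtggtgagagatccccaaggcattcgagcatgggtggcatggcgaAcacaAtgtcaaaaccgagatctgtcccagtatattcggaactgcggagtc
Lyz2: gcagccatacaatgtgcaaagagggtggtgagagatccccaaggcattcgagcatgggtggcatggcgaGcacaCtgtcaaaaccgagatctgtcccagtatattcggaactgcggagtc
Only 2 of these 120 bases differ. Over the whole Lyz1 transcript, 195 of 1214 windows of 50 bases (16.1%) also occur in Lyz2. The Lyz1 coding sequence ends at base 474 of 1263, and in the last 500 bases of the transcript 80 of 451 windows (17.7%) are shared. How many Lyz2 reads were counted as Lyz1, or were dropped as ambiguous, is not known from the counts.

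In the library labelled CL most Lyz1 UMIs lay where Lyz2 was high, whereas the 1 Lyz1 UMI in retained cells of Ctrl lay in a secretory-lineage luminal cell. Myeloid cells of the library labelled CL held 13 Lyz1 UMIs beside 15772 of Lyz2, and those of the library labelled Ctrl held 0 beside 1039. In C1q-low cells the Lyz1 UMIs numbered 0 and 12 and lay in 6 of the 188 CL cells, 7 of them in 1 cell. Sub-clusters 5 and 6 held 12 of the 13, in 6 cells.

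Plac8 (ENSMUSG00000029322, chr5:100553725-100572245, minus strand) was higher in C1q-low than in C1q-high cells in both libraries. It stood at 1059 CPM in C1q-low and 44.0 CPM in C1q-high cells of Ctrl (log2 ratio 4.59, 3.80 to 5.48). In the library labelled CL the levels were 3099 and 963 CPM (1.69, 1.57 to 1.80). Plac8 was thus higher in CL in both groups, by 1.55 (1.27 to 1.84) in C1q-low and by 4.45 (3.72 to 5.30) in C1q-high cells.

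Of the C1q-high Plac8 UMIs in CL, 85.7% lay in the 21 cells of sub-clusters 5 and 6, at 3154 CPM. In sub-cluster 0 the levels were 22.4 CPM (6 UMIs) and 136 CPM (58 UMIs), a log2 ratio of 2.60 (1.39 to 4.11), and 48 of the 58 UMIs came from 1 cell. After thinning to 4630 UMIs, 18.9% of C1q-high cells in Ctrl and 43.3% in CL held a Plac8 UMI (19.5% and 50.7% unthinned). The summed markers of hormone-responsive luminal cells, a second source of Plac8, were 369 and 460 CPM in C1q-high cells. Those of secretory-lineage luminal cells were 5460 and 3899 CPM there and 427 and 559 CPM in T and NK-like cells. The secretory-lineage list includes Cd14 and Mfge8 and its genes were not separated, so its sum cannot be read as luminal RNA alone. The part of luminal RNA in the result was not tested. Dendritic-like cells had like levels in both libraries, 1529 and 1616 CPM (0.08, -0.35 to 0.54).

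Outside the myeloid cells the Plac8 level differed between cell classes. Hormone-responsive luminal cells stood at 178 CPM and 224 CPM in the libraries labelled Ctrl and CL, and 72.1% and 78.3% of these cells held a UMI. Secretory-lineage luminal cells, from the same suspension, stood at 14.2 and 21.8 CPM, 12.6-fold and 10.3-fold below. T and NK-like cells were at 428 and 546 CPM (0.35, 0.21 to 0.50), fibroblasts at 116 and 294 CPM (1.34, 1.11 to 1.57) and basal cells at 16.6 and 30.7 CPM. In each of these 5 classes the level in CL was higher beyond counting error, by 0.33 (0.29 to 0.37) in hormone-responsive, 0.62 (0.45 to 0.79) in secretory-lineage and 0.89 (0.41 to 1.38) in basal cells.

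Plac8 was also found in free RNA. Droplets of 100 to 300 UMIs held 376 and 543 CPM of Plac8 in the libraries labelled Ctrl and CL, above hormone-responsive cells in both. The retained cells held 58.1% and 66.4% of all Plac8 UMIs of their library, the lowest share of the 8 genes in the library labelled CL and, after Lyz1, in the library labelled Ctrl. Both luminal classes, basal cells and fibroblasts all lay under the droplet level of their library, T and NK-like cells lay close to it, and the part of free RNA in their levels was not tested.

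Ccr2 (ENSMUSG00000049103, chr9:124101950-124113557, plus strand), the receptor for the chemokines Ccl2, Ccl7 and Ccl12, was highest in C1q-low myeloid cells, at 248 CPM and 134 CPM in the libraries labelled Ctrl and CL. Its log2 ratio of CL over Ctrl was -0.88 (-1.49 to -0.22) there, but 0.18 with each cell named alone. Only 4 of the 18 Ctrl cells held its 25 UMIs, and 1 dendritic-like cell held 16 of them. In the library labelled CL 75 of 188 cells held 192 UMIs, with a highest value of 11. In C1q-high cells the levels were 46.9 and 56.1 CPM (0.26, -0.60 to 1.19), and 12 of the 16 Ctrl UMIs lay in sub-cluster 3, without which the values were 13.6 and 55.6 CPM (2.04, 0.57 to 3.98). Sub-clusters 5 and 6 held 85.7% of the CL UMIs, and without them the ratio was -2.05.

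Among myeloid cells the Ccr2 level differed between sub-clusters. Sub-cluster 5 stood at 368 CPM (3 cells) and 177 CPM (76 cells), sub-cluster 6 at 86.0 CPM (1 UMI in 2 cells) and 105 CPM, sub-cluster 3 at 260 CPM (12 UMIs in 5 of 8 cells) and 93.4 CPM (1 UMI), and dendritic-like cells at 532 CPM (5 cells) and 156 CPM (36 cells). Sub-clusters 4 and 8 had 0 Ccr2 UMIs in both libraries, over 23 and 14 cells. Sub-cluster 0 had 3 and 4 UMIs, at 11.2 and 9.37 CPM.

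In T and NK-like cells Ccr2 stood at 116 CPM (126 UMIs in 63 of 213 cells) and 88.8 CPM (340 UMIs in 188 of 734 cells), a log2 ratio of -0.39 (-0.69 to -0.08). The level differed among their clusters. It was 157 and 114 CPM in the cluster led by Gzma, Ccl5 and Xcl1, 141 and 86.6 CPM in the one led by Ccl5 and Srgn, and 54.7 and 28.4 CPM in the one led by Gzma, Rgs1 and Gzmb. All 3 were lower in the library labelled CL. Thinned to 2320 UMIs, 17.3% and 15.7% of T and NK-like cells held a UMI, while 0.0838% and 0.0284% of secretory-lineage luminal cells, which should lack the gene, held one when thinned to 5211 UMIs.

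Over all cells the ligands of Ccr2 did not rise with it. Ccl2 stood at 126 and 93.2 CPM, Ccl7 at 25.8 and 15.6 CPM and Ccl12 at 0.302 and 0.281 CPM in the libraries labelled Ctrl and CL. Ccl8 was lowest relative to Ctrl, at 4.18 and 1.68 CPM (log2 ratio -1.32). It was on the list but is not among the ligands named above. Of the 4 listed genes 0 were at least 2-fold higher and 1 (Ccl8) was lower, beside 4.42% and 4.23% of 17602 genes. In C1q-low cells Ccl2 had 2 and 99 UMIs (log2 ratio 1.81, -0.09 to 4.87) and Ccl7 1 and 36 (1.35, -1.22 to 6.69), higher in CL within wide intervals that include no difference. Within C1q-high cells all 4 were lower by at least 2-fold, where 3.92% of 6076 genes were lower and 14.8% higher by that much, Ccl2 at 434 and 195 CPM and Ccl8 at 319 and 0 CPM (109 and 0 UMIs). That fall rested on sub-cluster 3, which is led by Ccl8 and Ccl7 and had 8 of its 10 cells in Ctrl. Without it, 2 of 3 measured genes of the list were at least 2-fold higher in C1q-high cells and 0 were lower, beside 18.5% and 3.59% of 6021 genes.

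Chil3 (ENSMUSG00000040809, chr3:106147554-106167564, minus strand) stayed with the C1q-low cells. They held 41 UMIs in 3 of 18 cells (406 CPM) and 855 UMIs in 82 of 188 cells (598 CPM) in the libraries labelled Ctrl and CL, a log2 ratio of 0.56 (0.11 to 1.05). The ratio was -0.12 with a limit of 5% mitochondrial UMIs and -0.61 (-1.07 to -0.10) in the C1q-low cells of sub-clusters 5 and 6 alone (4 and 113 cells). C1q-high cells held 0 UMIs in 41 cells of Ctrl (exact upper limit 10.8 CPM; a floor of 3 counts is 8.79 CPM) and 45 UMIs in 8 of 67 cells of CL (60.1 CPM), at least 6.84-fold higher against that floor. Within the library labelled Ctrl the level in C1q-low cells was at least 46.2-fold higher than in C1q-high cells. Sub-clusters 5 and 6 held 86.7% of the C1q-high UMIs in CL and 39 of the 41 C1q-low UMIs in Ctrl. Sub-cluster 0 had 0 Chil3 UMIs in both libraries, over 70 cells.

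Chil3 belongs with Retnla and Ear2 to the products of alternatively activated macrophages. Over all cells Ear2 had 2 and 22 UMIs and Retnla 1 and 10 in the libraries labelled Ctrl and CL. The close copy Chil4 had 0 UMIs in both libraries.

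Aif1 (ENSMUSG00000024397, chr17:35170991-35176068, minus strand) ran against the other members. It was higher in C1q-high cells, at 431 CPM and 478 CPM in the libraries labelled Ctrl and CL (0.15, -0.13 to 0.44). In C1q-low cells it stood at 59.4 CPM (6 UMIs in 3 of 18 cells) and 181 CPM (259 UMIs in 92 of 188 cells), a ratio of 1.61 (0.47 to 3.07). The log2 ratio of C1q-low over C1q-high cells was -2.86 (-4.33 to -1.70) in Ctrl and -1.40 (-1.64 to -1.17) in CL, and this was the one member at least 2-fold lower in C1q-low cells, in both libraries. Sub-cluster 0 stood at 468 and 555 CPM and sub-cluster 6 at 516 CPM (6 UMIs in 1 cell) and 384 CPM. Neutrophil-like cells had 0 Aif1 UMIs in 2 and 21 cells. Outside the myeloid cells 20 and 17 UMIs were found in all.

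Within C1q-low cells, 3 of the 7 members with at least 50 UMIs were thus at least 2-fold higher in the library labelled CL (Lyz2, Plac8 and Aif1), where 13.8% of 3620 genes rose that far, and 0 were lower by as much, against 5.88%. Lyz2 fell below 2-fold in these cells under some of the alternatives given in the last section and stayed above it under others. Within C1q-high cells 1 of 3 such members (Plac8) passed 2-fold upward, against 7.97% of 2070 genes (2.75% were lower), with Lyz2 just inside the limit at 1.99-fold. Low over high, 6 of 7 members were at least 2-fold higher and Aif1 was lower in CL, beside 8.4% and 5.2% of 3691 genes. In Ctrl Lyz2, Plac8, S100a8 and S100a9 were higher and Aif1 was lower among 5 members with 50 UMIs, beside 6.95% and 18.9% of 935 genes. The split uses C1q, so these counts describe the 2 groups and are no test.

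S100a8 (ENSMUSG00000056054, chr3:90668978-90670035, plus strand) and S100a9 (ENSMUSG00000056071, chr3:90692632-90695721, minus strand) came mostly from a few neutrophil-like cells. Of the 2 such cells in the library labelled Ctrl, the first held 230 UMIs of S100a8 and 206 of S100a9 among 2366 UMIs, and the second 174 and 335 among 2994. In the library labelled CL 15 of 21 neutrophil-like cells held both, 4 held S100a8 alone and 2 held neither. The sum of both genes ranged there from 0 to 3811 UMIs per cell with a median of 287, or 11.9% of the cell's UMIs. The Ctrl cells, at 17.0% and 18.4%, lay inside the CL range of 0 to 28.7%.

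Summed over neutrophil-like cells, S100a8 was at a like level in both libraries and S100a9 was lower in CL. S100a8 stood at 75373 CPM in Ctrl and 75184 CPM in CL, and S100a9 at 100933 and 73464 CPM. The 2 Ctrl cells stood at 87067 and 111890 CPM of S100a9, inside the CL range of 0 to 170079 CPM, so they do not settle a difference. The number of neutrophil-like cells was 2 and 21 (0.0337%, 0.00408 to 0.122, and 0.238%, 0.147 to 0.363). One CL cell with 2032 S100a8 and 1779 S100a9 UMIs among 13283 held 30.6% and 32.3% of the UMIs of these genes in retained cells of CL, and without it the log2 ratios over all cells were 2.23 and 2.32. Without all neutrophil-like cells they were 1.49 for S100a8 and 4.92 for S100a9, the latter on 5 UMIs in Ctrl.

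In C1q-low cells as a whole S100a8 was at 4000 and 4099 CPM (0.04, -0.11 to 0.18) and S100a9 at 5356 and 3764 CPM (-0.51, -0.64 to -0.38). The S100a9 direction turned under 4 alternatives, to values from 0.26 (without sub-clusters 5 and 6) to 0.72 (each cell named alone). When the neutrophil-like cells were left out, the 16 Ctrl cells had 0 UMIs of either gene, while the 167 CL cells had 439 of S100a8 and 84 of S100a9, at least 10.3-fold and 1.97-fold higher against a floor of 3 counts. A single cell of sub-cluster 5 held 261 of the S100a8 and 79 of the S100a9 UMIs. S100a8 without S100a9 was found in 30 of these 167 cells and S100a9 without S100a8 in 2.

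**Figure D4:**
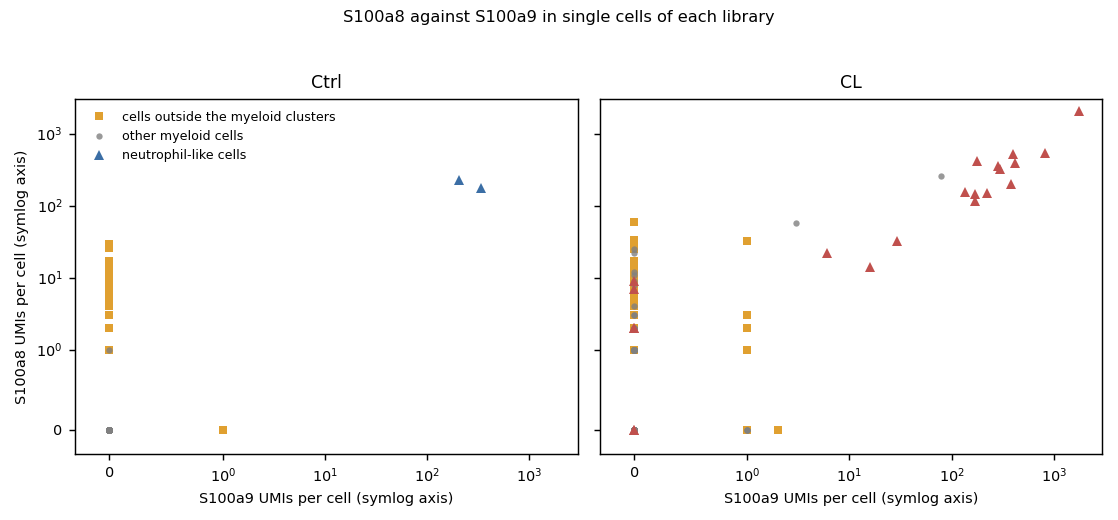
S100a8 UMIs (vertical) against S100a9 UMIs (horizontal) of single cells on symmetric log axes, for the library labelled Ctrl (left) and the library labelled CL (right). Neutrophil-like cells (triangles) that hold both genes reach 2032 and 1779 UMIs and 4 in CL hold S100a8 alone, while cells outside the myeloid clusters (squares) reach 59 S100a8 UMIs with at most 2 of S100a9.

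Luminal cells carried S100a8 with little S100a9. In secretory-lineage cells 222 UMIs of S100a8 stood beside 2 of S100a9 in the library labelled Ctrl, and 556 beside 54 in the library labelled CL. Per UMI of S100a9 there were 62.2 and 6.77 of S100a8 in all luminal cells, against 0.749 and 1.09 in myeloid cells and 2.39 and 1.23 in droplets. Secretory-lineage cells stood at 7.42 and 12.8 CPM of S100a8 and hormone-responsive cells at 1.84 and 3.02 CPM, beside 3.90 and 34.7 CPM in droplets, and the part of free RNA in luminal S100a8 was not tested.

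The luminal S100a8 was unevenly spread. In the cluster led by Wfdc18, Csn3 and Snorc there were 100 UMIs in Ctrl (658 cells) and 174 in CL (554 cells), and in the cluster led by Ltf, Wfdc18 and Snorc 3 (564 cells) and 23 (937 cells). The log2 ratio of CPM between these clusters was 4.76 (3.17 to 7.06) and 3.47 (2.84 to 4.16), whereas S100a9 had 0 and 0 UMIs in them in Ctrl and 10 and 9 in CL. Outside the myeloid clusters 8 Ctrl cells and 18 CL cells held at least 10 S100a8 UMIs, with 42.4% and 46.9% of the UMIs there. The highest held 29 and 59, and all 26 together held 0 and 1 S100a9 UMI. Over all cells outside the myeloid clusters S100a8 was at 3.67 and 6.65 CPM (0.86, 0.67 to 1.05). Without clusters 8 and 13, each nearly all from 1 library, that ratio was 0.34.

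S100a9 outside the myeloid clusters looked different. It had 5 UMIs in the library labelled Ctrl, against 122 in that labelled CL (0.0584 and 1.06 CPM, log2 ratio 4.18, 2.92 to 5.83), in 5 and 119 cells with at most 2 UMIs each. Lyz2 was also higher there in CL, with 33 and 393 UMIs (0.385 and 3.41 CPM), and reached 26 UMIs in 1 secretory-lineage and 14 in 1 basal cell of CL. Both lay under the level in droplets of their library, 1.63 and 28.2 CPM for S100a9 and 7.17 and 83.8 CPM for Lyz2, and the part of free RNA in these levels was not tested. Outside the myeloid clusters 3 of the 5 members with at least 50 UMIs were over 2-fold higher in CL (Lyz2, Ccr2 and S100a9), beside 2.19% of 14479 genes.

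Droplets of 100 to 300 UMIs also differed between the libraries, except in Lyz1 (2 and 2 UMIs). The log2 ratio in them was 3.55 (3.21 to 3.90) for Lyz2, 3.15 (2.70 to 3.64) for S100a8 and 4.11 (3.43 to 4.88) for S100a9, and 0.53, 1.57 and 1.45 for Plac8, Ccr2 and Aif1. Chil3 had 0 CPM in droplets of Ctrl and 5.23 CPM in those of CL. For Lyz2 the value in droplets of 100 to 300 UMIs lies close to the 3.47 over all retained cells. Droplets of 50 to 100 UMIs gave a lower ratio and those of 300 to 500 UMIs a higher one, on 2 Lyz2 UMIs of Ctrl in each.

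The DNA before the S100a8 and S100a9 genes is shown because the pair was counted together in neutrophil-like cells and apart in luminal cells. The stretches are from RefSeq on GRCm38.p6, 5′ to 3′ on the strand of the gene, ending at the annotated gene, with matches to 4 motifs in capitals: GAGGAAG (PU.1), TTGCNNAA (C/EBP), TGACTCA (AP-1) and the interferon-stimulated response element, searched on both strands. The first is chr3:90668821-90668977 (plus strand) and the second chr3:90695722-90695971 (minus strand).
S100a8: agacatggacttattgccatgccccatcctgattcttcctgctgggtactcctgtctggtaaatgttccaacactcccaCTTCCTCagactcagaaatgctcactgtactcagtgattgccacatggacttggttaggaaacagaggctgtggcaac
S100a9: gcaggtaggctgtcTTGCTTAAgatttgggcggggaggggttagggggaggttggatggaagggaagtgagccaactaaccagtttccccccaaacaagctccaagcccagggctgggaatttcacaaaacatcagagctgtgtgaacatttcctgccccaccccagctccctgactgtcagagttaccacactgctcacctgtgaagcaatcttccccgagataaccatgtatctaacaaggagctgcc
S100a8 held 1 PU.1 match, 171 bases before the RefSeq start, and S100a9 held 1 C/EBP match, 236 bases before it. Neither window held a match of the kind found in the other.

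The same was done for the lysozymes, whose UMIs differ by orders of magnitude. The stretches are chr10:117282322-117282522 for Lyz2 and chr10:117292869-117293118 for Lyz1, both on the minus strand.
Lyz2: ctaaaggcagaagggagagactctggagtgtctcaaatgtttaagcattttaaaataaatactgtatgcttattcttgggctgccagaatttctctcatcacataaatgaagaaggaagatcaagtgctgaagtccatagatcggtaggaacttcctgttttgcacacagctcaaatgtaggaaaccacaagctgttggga
Lyz1: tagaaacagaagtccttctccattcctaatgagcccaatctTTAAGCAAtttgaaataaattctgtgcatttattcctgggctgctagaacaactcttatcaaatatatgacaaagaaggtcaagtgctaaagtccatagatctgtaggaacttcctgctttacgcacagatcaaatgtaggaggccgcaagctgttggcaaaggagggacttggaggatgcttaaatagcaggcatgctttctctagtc
Over the 250 bases before each RefSeq start, 200 were identical in a global alignment. Lyz1 held 1 C/EBP match, 209 bases before its start, and Lyz2 held 0 matches of the 4 motifs. Over the 9 windows of 300 bases listed for the 8 genes, 5 held at least 1 of the motifs (Aif1 and the second Plac8 start were the others), beside 29.4% of 32851 such windows. Singly, 13.6% held the PU.1 letters, 10.8% C/EBP, 5.20% AP-1 and 3.44% the interferon-stimulated response element. A match is a description of the letters and not a bound site.

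Other genes of the same cells were counted from lists, over genes with at least 10 UMIs in the higher library. Over all cells 8 of 12 classical monocyte genes were at least 2-fold higher in the library labelled CL and 0 were lower, beside 4.42% and 4.23% of 17602 genes. Ly6c2 stood at 5.42 and 29.2 CPM (2.43) and Ms4a4c at 0.372 and 4.15 CPM (3.48). Fn1, which fibroblasts also make, stood at 27.7 and 15.4 CPM (-0.84). Of 15 neutrophil genes 8 were higher and 0 lower, among them the granule genes Camp with 3 and 669 UMIs and Ngp with 1 and 576. Of 10 non-classical monocyte genes 3 were higher, of 10 dendritic cell genes 5, and of 13 resident macrophage genes 1. In C1q-low cells 3 of 12 classical monocyte genes were higher and 1 was lower, and of 14 neutrophil genes 2 were higher and 6 lower. There 7 of 9 non-classical monocyte genes and 7 of 9 dendritic cell genes were at least 2-fold lower in CL and 0 higher. Of 7732 genes 21% were lower and 9.76% higher there. Dendritic-like cells were 5 of 18 and 36 of 188 of these cells, and sub-cluster 8 was 5 and 9. Within dendritic-like cells alone 7 of 9 dendritic cell genes were also at least 2-fold lower and 0 higher, with a list median of -1.49 against -0.44 over all genes. In C1q-high cells 9 of 11 classical monocyte genes were higher and 0 lower, and 3 of 8 resident macrophage genes were lower and 0 higher, beside 14.8% of 6076 genes higher and 3.92% lower. Without sub-cluster 3 these were 10 of 11 higher and 1 of 7 lower, beside 18.5% of 6021 genes higher and 3.59% lower. Over all cells the receptors for S100a8 and S100a9 showed 0 of 4 past 2-fold, with Tlr4 at a log2 ratio of -0.36. In C1q-low cells 2 of 3 measured receptors were at least 2-fold lower and 0 higher. Of 8 myeloid transcription factors 2 were higher over all cells, Spi1, which encodes PU.1, at 2.66 and 7.28 CPM (1.45) and Gfi1. Within all myeloid cells 0 of 7 were higher, within C1q-high cells 0 of 7 and within C1q-low cells 1 of 7.

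The lists also placed the C1q split within the library labelled CL. Low over high, 7 of 12 classical monocyte genes were at least 2-fold higher and 0 lower, and 12 of 14 neutrophil genes were higher, 5 of them with 0 UMIs in C1q-high cells, beside 12.5% and 6.83% of 7894 genes. Nearly all genes of the neutrophil list also served as markers to name the neutrophil-like cells. All of these cells were C1q-low, so that the neutrophil count was largely set in advance. Of 9 resident macrophage genes 7 were lower, C1qa, C1qb and C1qc among them by construction, and Pf4 stood at 7.69 and 238 CPM (-4.95). Timd4 was the 1 higher, with 23 and 1 UMIs. The 5 highest ratios among 2681 genes were S100a9, S100a8, Camp, Ngp and Retnlg, and neutrophil-like cells held from 92.5% to 100% of their C1q-low UMIs. Chil3 ranked 14th, Plac8 63rd, Lyz2 114th and Ccr2 129th. The 5 lowest were Mmp13, C1qa, H2-M2, Zmynd15 and Mmp12, and Aif1 ranked 2565th.

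Across the 255 myeloid cells of the library labelled CL, the genes nearest to each member were found by Pearson correlation of log-scaled values over 5863 genes, as a description. The members themselves were left out of this search, and correlations between them are given separately below. The points share 1 library and differ in depth. The nearest to Lyz2 were Thbs1 (r = 0.62), S100a4 (0.61) and Hmox1 (0.59), with 0.45, 0.51 and 0.48 over the 59 cells of Ctrl. Plac8 lay nearest to Tmsb10 (0.73), Ifitm3 (0.70) and S100a4 (0.66), and Ccr2 to Tmsb10 (0.44), Ms4a6c (0.43) and Vim (0.40). The nearest to Lyz1, found in few cells, were Smarcb1 (0.32), C9orf72 (0.32) and Brd3 (0.30). Chil3 lay nearest to Ly6c2 (0.49), Thbs1 (0.48) and Smpdl3a (0.43), the last with 0.02 in Ctrl. S100a8 and S100a9 both lay nearest to Hdc, histidine decarboxylase, a gene of neutrophils and basophils (0.78 and 0.87). Pdia3 (0.42) and Calr (0.41), chaperones of the endoplasmic reticulum, were 2 of the 3 nearest to Aif1, with 0.29 and 0.18 in Ctrl.

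Within the set, S100a8 and S100a9 had r = 0.91 in CL and 0.99 in Ctrl. Lyz2 and Plac8 had 0.55 and 0.31 and Lyz2 and Chil3 0.45 and 0.40. Aif1 and C1qa had 0.35 and 0.55, whereas Plac8 and C1qa had -0.53 and -0.54. Of the cells of sub-clusters 5 and 6, 39 of 134 in CL and 2 of 5 in Ctrl held UMIs of Lyz2, Plac8, Ccr2 and Chil3 together, while 0 of 38 and 0 of 32 cells of sub-cluster 0 did.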

How the data were processed

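Cells of 1 Ctrl and 1 CL mammary library were profiled with 10x 3′ chemistry. The deposited values were raw UMI counts of 32285 genes for every barcode, which the authors had aligned to mm10. The submitters' processing notes name Cell Ranger 2.1.1, whereas the file header is that of another release, so the version is uncertain. The barcode lists did not index the matrix columns, so the 7217 (Ctrl) and 10555 (CL) barcodes with most UMIs were taken, as many as each list holds. Cells needed at least 500 genes and at most 15% mitochondrial UMIs. Scrublet's automatic threshold marked 0 CL cells, so the Ctrl threshold was used for both, which removed 360 and 509 cells. With scanpy 1.11.5 (2000 variable genes, 30 components, 15 neighbours, Leiden resolution 1), cells were clustered without the 8 genes and C1q-high cells had at least 10 UMIs of C1qa, C1qb and C1qc. The doublet threshold and myeloid sub-clustering were chosen after the data were seen, and the members and gene lists were chosen with earlier results of these data known.

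UMIs were summed by class and library. A gene entered a share of genes past 2-fold with at least 50 UMIs in the higher profile (10 for lists), and a count of 0 was set to 3 for that. Named genes were the 5 highest and 5 lowest log2 ratios of C1q-low over C1q-high cells in CL where the higher group had 50 CPM and 50 UMIs or more, and the 3 genes nearest each member by correlation among those found in 10% of the cells. Mitochondrial and ribosomal protein genes were left out of both, Hb, Gm and Rik genes of the first and the 8 members of the second. Shares of cells were compared after thinning each cell to the 10th percentile of depth. The ratio code was tested on simulated data. Alternatives changed cell filters, doublets, clustering, the C1q split, scaling (edgeR 4.0.16 TMM), droplet ranges and the cells included. Promoters came from RefSeq on GRCm38.p6, where all 8 genes matched, and positions and transcripts from GENCODE M21. Total UMIs set the precision, and counting intervals leave out variation between animals.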

Additional observations from a re-analysis of the deposited data

Results flagged for a closer look

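The change in Lyz2 differed in direction or size between cell classes. The log2 ratio of the library labelled CL over the library labelled Ctrl was 3.03 in hormone-responsive luminal, 3.07 in secretory-lineage luminal and 5.04 in basal cells (26 UMIs against 1, with 14 of the 26 in 1 cell). It was 1.15 in C1q-low and 0.99 in C1q-high myeloid cells, and -0.52 in the C1q-high cells of sub-cluster 0. For S100a9 the ratio was 3.85 in hormone-responsive and 4.22 in secretory-lineage luminal cells, and -0.51 in C1q-low myeloid cells, a value that turned positive under 4 alternatives (0.26 to 0.72). These differences between classes were not tested, since each group was 1 library.

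Barcodes outside the retained cells also carried S100a8 and S100a9. With at least 10 UMIs of the pair, the library labelled CL held 5 barcodes among those marked as doublets and 2 among the other barcodes, and the library labelled Ctrl held 0 of either. The 5 had a median of 29114 UMIs.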

How the results depend on the processing

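For 54 results, 646 alternative values were computed under 31 settings: 516 stayed within the counting error or 1.5 times of the reported value in the same direction, 122 moved and 8 reversed. Alternatives that leave out clusters or single cells were chosen after seeing the data. For Lyz2 in C1q-low cells the log2 ratio was 1.65 at 200 genes, 0.48 and 0.72 at 5% and no mitochondrial limit, 1.63 with doublets kept, 2.37 with each cell named alone, 0.86 with a split at 20 UMIs, 1.38 with TMM, 0.86 without sub-cluster 2 and 2.30 without sub-clusters 5 and 6. In C1q-high cells it was 1.13 at 5% mitochondrial UMIs, 1.13 with each cell named alone, 1.41 and 1.20 with splits at 5 and 20 UMIs and 1.22 without sub-cluster 3, and it reversed to -0.46 without sub-clusters 5 and 6 and to -0.52 in sub-cluster 0 alone. In C1q-low cells S100a9 reversed to 0.29 at 200 genes, 0.27 with doublets kept, 0.72 with each cell named alone and 0.26 without sub-clusters 5 and 6, Chil3 to -0.12 at 5% mitochondrial UMIs and Ccr2 to 0.18 with each cell named alone. The median of the 8 genes was 3.38 at the stricter gene minimum. Lyz2 in droplets was 2.70 at 50 to 100 UMIs and 4.92 at 300 to 500. The thinned share of C1q-high cells with Plac8 had a log2 ratio of 3.76 for at least 2 UMIs. Genes at least 2-fold higher in C1q-high cells were 14.8% at 10 UMIs. The C1q-low share had a ratio of 1.87 without sub-clusters 5 and 6. The cause of these shifts was not tested. The TMM factors of C1q-low cells had a log2 ratio of -0.23 (CL over Ctrl), which raised their ratios by as much. No paired analysis was possible because each group was 1 library. Only 18 C1q-low and 41 C1q-high cells of the library labelled Ctrl limit every myeloid value.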
